A study of Bos taurus with 13 samples.

Results

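The genes described are those that carry nucleosides into cells and recycle or break them down: UPP1 and the members named with it, SLC28A3, SLC29A1, CDA, UCK2, DPYD, PNP and ADA. They were chosen by name, after UPP1 and SLC28A3 had been seen to be lower in cows with high milk cortisol, so the difference between the cortisol groups is given as a description and is not tested. Of the 8 members, 7 had an entry under their own name among 16095 named genes, and all 7 were among the 11033 genes that passed the filter on low counts. PNP, the purine nucleoside phosphorylase, was not analysed here.

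RNA was sequenced from whole blood of 13 lactating Italian Red Pied dairy cows (the breed on the labels, which the methods of the study call Italian Simmental), drawn from the tail vein into tubes that stabilise RNA, without removal of globin transcripts. The cows had been ranked by the cortisol concentration in their milk, a measure of stress, and 7 belonged to the high group (replicates 1 to 7) and 6 to the low group (replicates 8 to 13). No treatment was given to either group, each cow was sampled once, and the labels place 10 cows in each tail, of which the others were not analysed here. Each library held 11045599 to 28124575 counts on named genes, and no pair of libraries held identical values. Blood cell markers were present in every library, with summed levels of 5850 to 12700 CPM (counts scaled to the size of the library) for 12 neutrophil genes and of 3810 to 6390 CPM for 14 T cell genes. Of the blood cell markers that passed the filter none was at 0 counts in any cow, and the monocyte marker CPVL, which did not pass, was at 0 in all 13 cows.

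Nucleosides are the sugar-bound bases of RNA and DNA. Cells either build nucleotides from small precursors or salvage nucleosides from their surroundings, and blood cells depend on salvage to differing degrees. Transporters of 2 families bring nucleosides in: the concentrative transporters (SLC28), which use the sodium gradient, and the equilibrative transporters (SLC29), which let nucleosides pass in either direction. Inside the cell a pyrimidine nucleoside can be phosphorylated and kept, which UCK2 does for uridine and cytidine, or deaminated by CDA and split by UPP1 into uracil and ribose phosphate, after which DPYD starts the breakdown of uracil. ADA deaminates adenosine and deoxyadenosine, and its loss in humans stops lymphocyte development.

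Levels were compared between genes per transcript length, in TPM (counts scaled to the exon length and to the library). UPP1 stood highest, with a median of 162 TPM over the 13 cows and a range of 92.2 to 226 TPM. ADA followed at a median of 77.9 TPM (55.8 to 155), and CDA at 32.8 TPM (21.7 to 57.3). UPP1 was above ADA in 12 of 13 cows, ADA above CDA in 13, and CDA above SLC28A3 in 12.

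The next genes in this order could not be separated. SLC28A3 had a median of 22.4 TPM, DPYD of 20.8 TPM and UCK2 of 20.5 TPM, and SLC28A3 exceeded DPYD in 8 cows while DPYD exceeded UCK2 in 7. SLC29A1 was lowest, at a median of 6.97 TPM (5.37 to 13.2), and lay below UCK2 in all 13 cows, the only neighbours whose ranges did not overlap. The concentrative transporter SLC28A3 was thus above the equilibrative transporter SLC29A1 in 13 of 13 cows, by a TPM ratio of 1.49 to 4.36 in the high group and 1.01 to 7.36 in the low group.

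**Figure D1:**
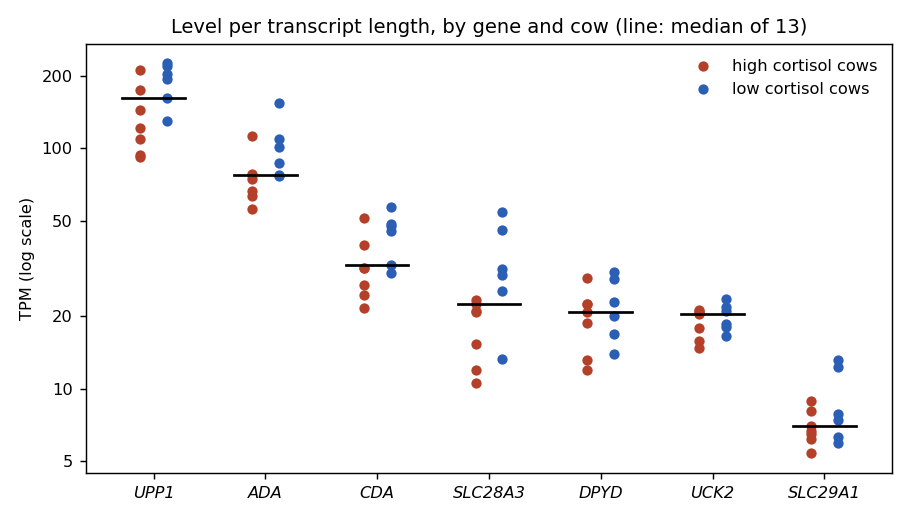
Level of each gene in TPM (log scale) in 13 cows, red for high and blue for low milk cortisol, with a line at the median. UPP1 lies highest (median 162 TPM) and SLC29A1 lowest (median 6.97 TPM), while SLC28A3, DPYD and UCK2 share the range around 20.5 to 22.4 TPM.

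The related genes differed widely in level. SLC28A1 had 0 to 2 counts and SLC28A2 had 0 to 9 counts per cow, so that SLC28A3 was the only SLC28 transporter to pass the filter. UPP2, the second uridine phosphorylase, had 0 counts in every cow, which allows a level of up to 0.107 to 0.272 CPM depending on the depth of the library (3 counts, counting error only). Among the equilibrative transporters SLC29A2 had a median of 21.8 TPM, above that of SLC29A1, and SLC29A4 of 0.616 TPM.

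In the gene models that the counts name (UMD3.1), UPP1 lies on chromosome 4 (7528100 to 7556112, minus strand, 8 exon entries) and CDA on chromosome 2 (132636462 to 132657392, minus strand). SLC28A3 lies on chromosome 8 (78871655 to 78944175, minus strand), SLC29A1 on chromosome 23 (17845969 to 17856150, plus strand) and ADA on chromosome 13 (73750479 to 73773983, minus strand). UCK2 (3045781 to 3119590, minus strand) and DPYD (45563732 to 46487165, plus strand) both lie on chromosome 3, far apart. A value counts reads over all exons of a gene, and no member overlaps another named gene.

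The first question was how these genes lie in cows with high and low milk cortisol. In bulk blood, fewer cells of a type and less RNA per cell cannot be told apart, and this holds for every difference below. Of all genes tested, 46.7% were lower in the high group, with a median log2 fold change of 0.01, and no gene passed an adjusted p of 0.05 (edgeR quasi-likelihood test, smallest adjusted p = 0.998, 231 genes or 2.09% at an unadjusted p under 0.05). With DESeq2 on the same cows 1 gene passed. The study, which used DESeq2 and describes more cows, reported genes that passed its threshold, with UPP1 among those lower in the high group. All 7 members were lower in the high group, as their choice in part determined.

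SLC28A3 had the largest difference among the members. In the high group it ranged from 20.7 to 42 CPM with a median of 37.9, and in the low group from 26.2 to 105 CPM with a median of 55.7. Each of the 7 high cows was under the low median, but the low cow of replicate 13, at 26.2 CPM, lay within the range of the high group. The log2 fold change was -0.94 (SE 0.27).

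SLC29A1, the other transporter, ranged from 7.07 to 12 CPM in the high group (median 9.39) and from 7.89 to 19.2 CPM in the low group (median 10.4). Its log2 fold change was -0.38 (SE 0.21), and 4 of the 6 low cows lay within the range of the high group. The difference was carried by the low cows of replicates 12 and 13, at 16.8 and 19.2 CPM, and was -0.21 without replicate 13.

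UPP1 ranged from 55.5 to 153 CPM in the high group (median 79.9) and from 92.1 to 149 CPM in the low group (median 131). Its log2 fold change was -0.50 (SE 0.20). The highest cow of all, at 153 CPM, was replicate 2 of the high group, while 5 of the 7 high cows lay below every low cow. CDA, which makes uridine from cytidine one step before UPP1, showed a like arrangement, from 13.6 to 35.7 CPM in the high group (median 19.8) and from 20.9 to 37.5 CPM in the low group (median 30), with a log2 fold change of -0.45 (SE 0.21). The TPM ratio of CDA to UPP1 was 0.182 to 0.288 in the high and 0.169 to 0.279 in the low group, a like range in both groups.

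The genes that compete for or follow on these steps differed less. UCK2 ranged from 10.2 to 14.5 CPM in the high group (median 12.5) and from 11.1 to 15 CPM in the low group (median 13.6), a log2 fold change of -0.12 (SE 0.13). DPYD ranged from 32.3 to 72.2 CPM (median 55.4) against 41 to 86.4 CPM (median 59.4), a log2 fold change of -0.21 (SE 0.20). For both genes the groups overlapped over most of their range, and the difference was about as large as its error.

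ADA, the purine member, ranged from 47.8 to 104 CPM in the high group (median 66.1) and from 68.8 to 154 CPM in the low group (median 89.9), a log2 fold change of -0.47 (SE 0.19). The low cow of replicate 13 held the highest value, and leaving that cow out gave a log2 fold change of -0.28. For no member did every high cow lie below every low cow, an arrangement that 2 of all genes tested had (0.0181%).

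**Figure D2:**
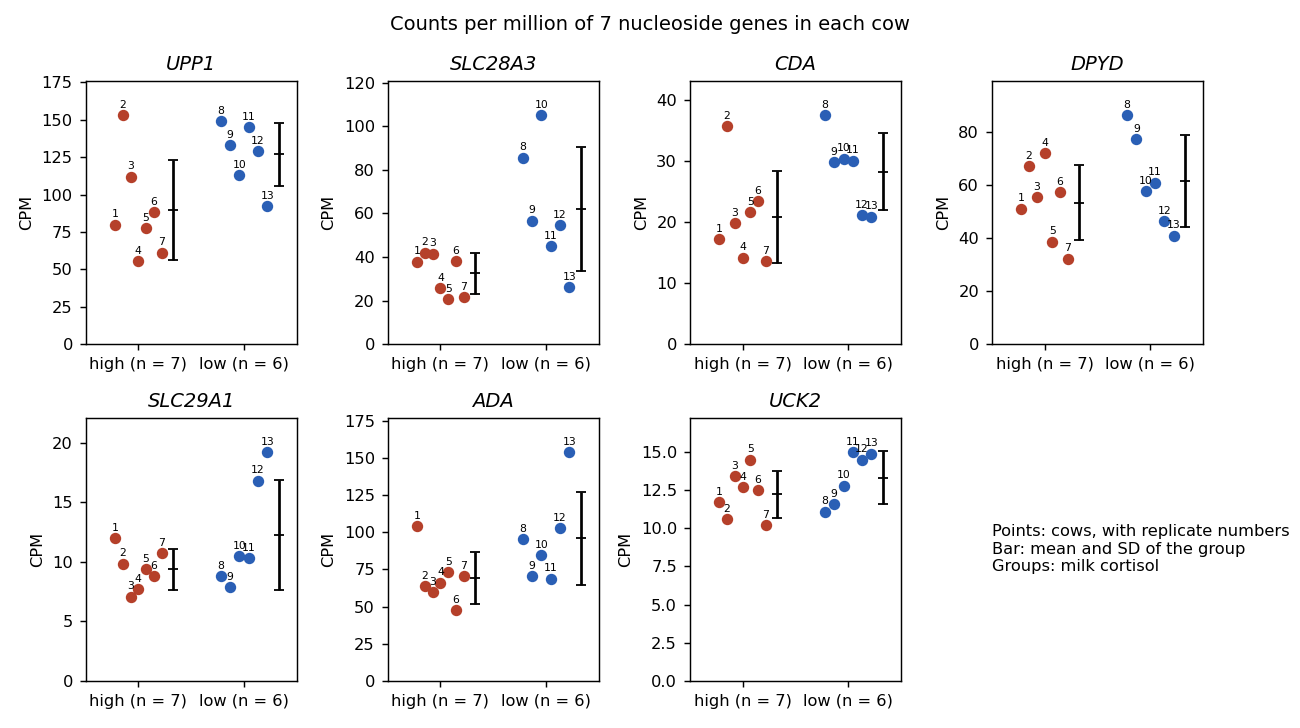
CPM of the 7 genes in each cow by milk cortisol group, with replicate numbers, and the mean and SD of each group (7 high and 6 low cows). The groups overlap for every gene. SLC28A3 spans 20.7 to 42 CPM in the high and 26.2 to 105 CPM in the low group.

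Cows within a group differed by unequal amounts from gene to gene. On the log2 CPM scale the SD within groups was 0.58 for SLC28A3, above that of 85.3% of all genes tested, and 0.38 to 0.42 for UPP1, CDA, DPYD, ADA and SLC29A1, against a median of 0.31 over all genes. UCK2 stood apart with an SD of 0.18, and 15% of genes tested varied less.

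The members were next compared with each other after the mean of each cortisol group had been removed, so that the difference which chose them played no part. Pearson's r and Spearman's rho over 13 cows carry two-sided permutation p-values, and a fit across all genes (edgeR, with group as a term) gives the adjusted p. In all, 105 relations were computed, 21 between members and 84 with marker scores, and 24 had a permutation p of r under 0.05.

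The members are described as 2 sets, which were named after their r values were seen. The signs within and between the sets therefore do not test the grouping, and UCK2 was placed in neither set. UPP1, CDA, SLC28A3 and DPYD were positively related in all 6 of their pairs (r from 0.46 to 0.84), 4 of them with a permutation p under 0.05. The other pairs were DPYD with UPP1 (r = 0.46, permutation p = 0.134) and DPYD with CDA (r = 0.57, permutation p = 0.0549). SLC29A1 and ADA were positively related to each other (r = 0.75) and negatively to each of those 4 genes (8 pairs, r from -0.72 to -0.29, 1 with a permutation p under 0.05). Within the high group the r of SLC29A1 was -0.07 with UPP1, 0.00 with CDA, -0.12 with SLC28A3 and -0.46 with DPYD. Within the low group it was -0.69, -0.91, -0.63 and -0.95 in the same order. The r of ADA with these genes was -0.34 to -0.19 within the high and -0.74 to -0.51 within the low group. Some of these negative values rested on few cows: without low replicates 10 and 13 the r of SLC28A3 went from -0.39 to 0.00 with ADA and from -0.48 to -0.21 with SLC29A1, and without low replicates 12 and 13 that of SLC29A1 with CDA went from -0.43 to -0.17. The slope of ADA on SLC28A3 was -0.26, and 0.04 without low replicate 13. UCK2 had r between -0.44 and 0.26 with the other 6 members, and no pair of it had a permutation p under 0.05.

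UPP1 and CDA formed the closest pair of the first set. Their r was 0.84 (permutation p = 0.00157) and rho was 0.68 (permutation p = 0.0227), with r = 0.90 within the high group and 0.67 within the low group. Without the 2 cows farthest from the median of UPP1 (replicates 2 and 4 of the high group), r was 0.65. CDA ranked 13th of 11032 genes by r with UPP1.

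In the edgeR fit across all genes CDA rose by 0.86 log2 units (SE 0.18) per log2 unit of UPP1, with an adjusted p of 0.226, the 10th smallest p of 11032 genes, so the pair did not pass the test over all genes. DESeq2 gave a slope of 0.87 (SE 0.19) and no adjusted p for this pair, in a fit where 25 genes passed. Leaving out high replicate 2, which held the most UPP1, gave a slope of 0.75 (adjusted p = 1). With the fit turned round, UPP1 on CDA had a slope of 0.82 (SE 0.16) and an adjusted p of 0.111.

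UPP1 and SLC28A3 were less closely related, with r = 0.56 (permutation p = 0.0272) and rho = 0.54 (permutation p = 0.0565). The r was 0.75 within the high group, 0.47 within the low group and 0.57 without the 2 cows farthest from the median of UPP1. SLC28A3 ranked 612th by r with UPP1, and its slope was 0.72 (SE 0.33, adjusted p = 0.57). Its own closest members were DPYD (r = 0.60, permutation p = 0.0376) and CDA (r = 0.58, permutation p = 0.0328), with rho of 0.59 (permutation p = 0.0474) and 0.65 (permutation p = 0.0216), and with r of 0.63 and 0.56 without the 2 cows farthest from the median of SLC28A3.

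By count, 0 of 6 members passed the adjusted threshold with UPP1 and 2 had an unadjusted p under 0.05 (SLC28A3 and CDA, both positive), where 0 and 8.75% of all genes did. With SLC28A3 as the partner the counts were 0 and 3 of 6 (UPP1, CDA and DPYD, all positive), against 0 and 6.13% of all genes. The count of 2 with UPP1 was 1 in 9 of the 13 fits that left out 1 cow. CDA was at an unadjusted p under 0.05 in all 13, and SLC28A3 only without high replicate 1, low replicate 10 or low replicate 11. Without high replicate 4 DPYD was, with a slope of 0.87 (SE 0.21) in place of 0.38. The count of 3 with SLC28A3 also rested on single cows: leaving out high replicate 7 or low replicate 13 gave 0, leaving out low replicate 8 gave 1, and leaving out high replicate 1 gave 5.

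In the second set, SLC29A1 and ADA had r = 0.75 (permutation p = 0.00503) and rho = 0.69 (permutation p = 0.0178), and r = 0.61 without replicates 12 and 13 of the low group. ADA rose by 0.73 log2 units (SE 0.18) per log2 unit of SLC29A1, with an adjusted p of 0.0857. SLC29A1 and DPYD ran opposite to each other, with r = -0.72 (permutation p = 0.00771), rho = -0.70 (permutation p = 0.0103) and r = -0.59 without the same 2 cows. DPYD on SLC29A1 had a slope of -0.75 (SE 0.21) and an adjusted p of 0.125. None of the 6 members passed the adjusted threshold with SLC29A1, where 0.725% of all genes did.

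**Figure D3:**
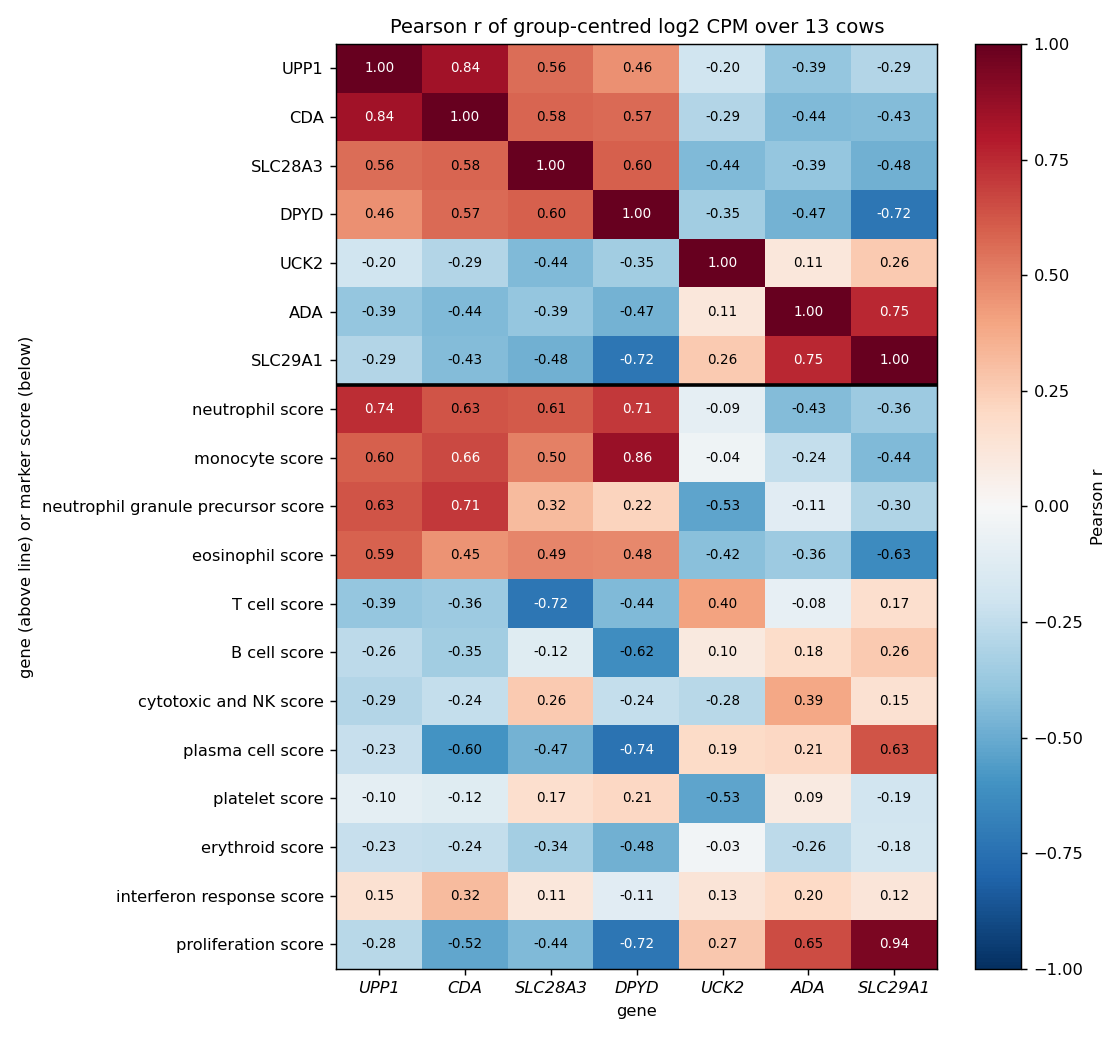
Pearson r of log2 CPM over 13 cows after removing each group's mean, between the 7 genes (above the line) and of the genes with 12 marker scores (below). UPP1, CDA, SLC28A3 and DPYD have r of 0.61 to 0.74 with the neutrophil score, and SLC29A1 has r = 0.94 with the proliferation score.

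The genes most like UPP1 over the 13 cows, members left out, were C19orf35 (r = 0.90), LIMK2 (0.89), PTPN5 (0.88), TALDO1 (0.87) and SPSB2 (0.86), of which PTPN5 was alike in both groups (0.89 in the high and 0.86 in the low group) and LIMK2 was not (0.98 and 0.19). Those most like SLC28A3 were TARS (r = 0.87), CALCOCO2 (0.86), SLC46A3 (0.84), STK17A (0.82) and MAP4K4 (0.82), each with r of at least 0.76 in either group. No gene was shared by both lists. These genes are given as a description, since each is the top of 11032.

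The cell source of a transcript in whole blood was approached through marker scores, the mean of the log2 CPM of a list of markers of each cell type after centring each gene. A score that moves with a gene does not show which cell holds its transcript, and the scores were related among themselves: the neutrophil score had r = 0.82 with the monocyte score and -0.45 with the T cell score.

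UPP1, CDA, SLC28A3 and DPYD all rose with the neutrophil score at an unadjusted p under 0.05, 4 of 7 members, where 7.79% of all genes had such a p and 4.98% with a positive slope. UPP1 gained 0.93 log2 units (SE 0.22) per unit of the score, with r = 0.74 (permutation p = 0.0156) and rho = 0.71 (permutation p = 0.02). The relation of DPYD had r = 0.71 (permutation p = 0.00784), that of CDA r = 0.63 (permutation p = 0.0399) and that of SLC28A3 r = 0.61 (permutation p = 0.0123).

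None of these passed the threshold over all genes (smallest adjusted p = 0.311, for UPP1). Replicates 2 and 7 of the high group had the highest and the lowest neutrophil score of that group. Without them r was 0.49 for UPP1, 0.56 for DPYD, 0.55 for SLC28A3 and 0.24 for CDA, the lowest of these. Within the low group, which holds neither cow, r was 0.78, 0.51, 0.66 and 0.53 in the same order (n = 6). With DESeq2 the adjusted p of UPP1 was 0.0414, in a fit where 59 of 14365 genes passed. SLC29A1 and ADA had r of -0.36 (permutation p = 0.129) and -0.43 (permutation p = 0.128) with the same score, and UCK2 of -0.09 (permutation p = 0.787).

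DPYD had its largest r with the monocyte score. Its r was 0.86 and its rho 0.95, each with a permutation p of 1e-05, the smallest that these permutations can give, and r was 0.94 without the 2 cows farthest from the median. The slope was 1.34 (SE 0.25), the 10th smallest p of 11024 genes, with an adjusted p of 0.0871, where 0.00907% of all genes (1 gene) passed the threshold. UPP1 and CDA also had an unadjusted p under 0.05 with this score, where 13% of all genes did, with r of 0.60 (permutation p = 0.0841) and 0.66 (permutation p = 0.0348). SLC28A3 had r = 0.50 (permutation p = 0.0322) and an edgeR unadjusted p of 0.0579, and its r was 0.44 without replicates 2 and 7 of the high group. Without the same 2 cows the r of UPP1 was 0.18 and that of CDA 0.28. Within the low group, which holds neither of those cows, r was 0.72 for UPP1 and 0.94 for CDA (n = 6). Whether DPYD differs from UPP1 in its slope on either score was not tested.

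SLC28A3 ran against the T cell score. Its r was -0.72 (permutation p = 0.0124) and its rho was -0.73 (permutation p = 0.0122), with r = -0.60 without replicates 11 and 13 of the low group. It fell by 2.34 log2 units (SE 0.66) per unit of the score, with an adjusted p of 0.574. It was 1 of 7 members with an unadjusted p under 0.05, where 4.23% of all genes had one, and the other 3 genes of its set had r of -0.44 to -0.36.

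With the other scores the counts of members at an unadjusted p under 0.05 were 2 with the neutrophil granule precursor score (UPP1 and CDA, 13.8% of all genes), 2 with the eosinophil score (6.35% of all genes), 1 with the B cell score (DPYD downward, 9.15% of all genes) and 3 with the plasma cell score (11% of all genes). They were 0 with the scores for cytotoxic and NK cells (2.37% of all genes), platelets (1.31%), erythroid cells (3.12%) and the interferon response (18.6%), and no member passed the adjusted threshold with any of these 8 scores, where 0.472% of all genes did with the interferon response score, 0.299% with the eosinophil score, 0.0454% with the B cell score, 0.00907% with the erythroid score and 0 with the other 4. With the interferon response score r lay between -0.11 and 0.32, although that score differed widely among cows.

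The proliferation score, the mean of 14 genes of mitosis and DNA replication, was fitted across all genes after the correlations had been seen. SLC29A1 rose with it by 0.86 log2 units (SE 0.15) per unit, with an adjusted p of 0.0205, and was the 1 member of 7 to pass the threshold over all genes, where 0.427% of all genes did. Its r was 0.94 (permutation p = 4e-05) and its rho was 0.88 (permutation p = 0.00074), with r = 0.87 within the high group, 0.97 within the low group, and 0.90 once high replicate 1 and low replicate 13 were left out. The adjusted p was above 0.05 when 1 of 5 cows was left out, at 0.0613 without replicate 1 of the high group and at 0.0847, 0.0771, 0.0958 and 0.198 without replicates 8, 9, 12 and 13 of the low group, with slopes of 0.79 to 0.90 over all 13 cows left out in turn.

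ADA had r = 0.65 with the proliferation score (permutation p = 0.0273) and rho = 0.47 (permutation p = 0.143), with an adjusted p of 0.227. Without replicate 1 of the high and replicate 13 of the low group r was 0.23, so the relation rested on those cows. DPYD ran against the score, with r = -0.72 (permutation p = 0.009), rho = -0.66 (permutation p = 0.021), r = -0.72 without those cows and an adjusted p of 0.175. At an unadjusted p under 0.05 the count was 3 of 7 members (SLC29A1 and ADA upward, DPYD downward), against 12.5% of all genes. The proliferation score itself had r = 0.72 with the plasma cell score. With the plasma cell score DPYD had r = -0.74 (permutation p = 0.00471) and SLC29A1 r = 0.63 (permutation p = 0.0448).

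**Figure D4:**
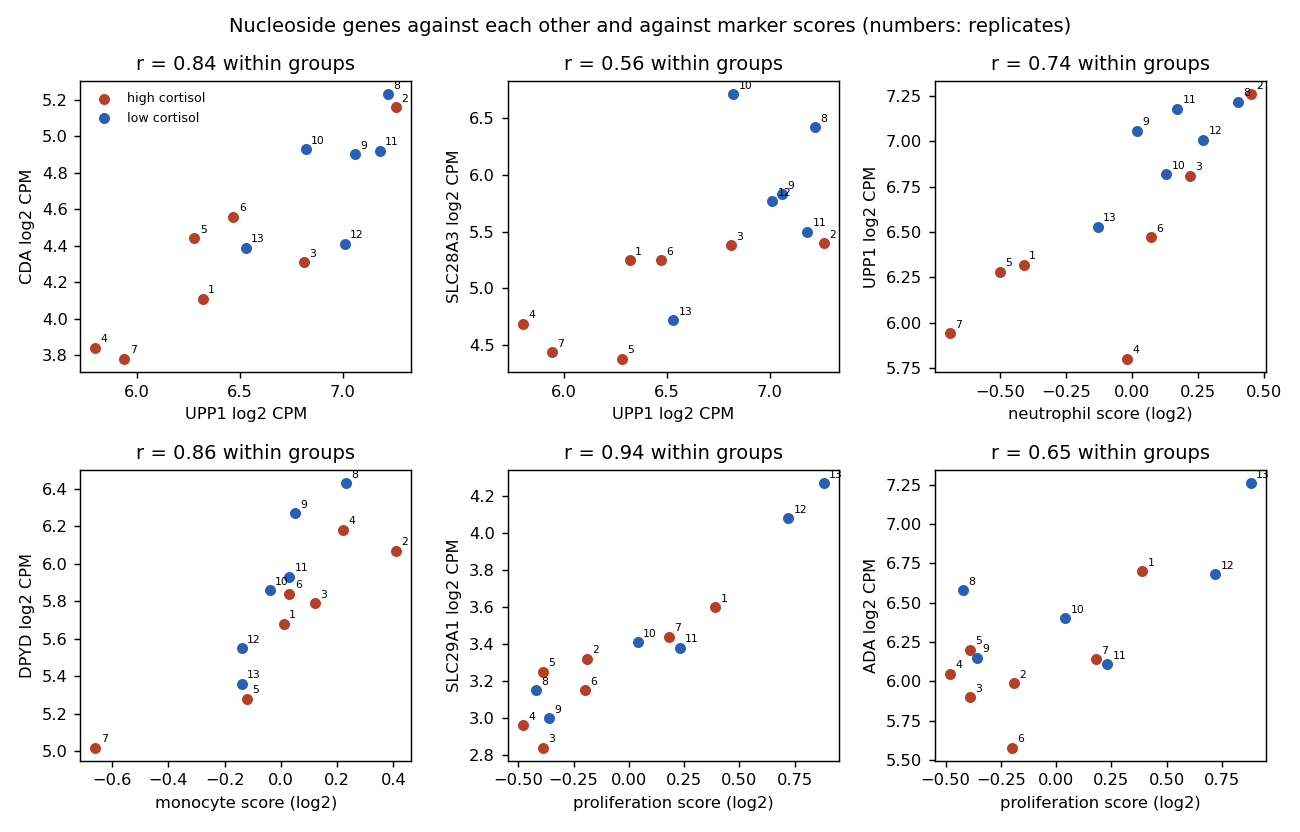
Pairs of measures in 13 cows, red for high and blue for low milk cortisol, with replicate numbers: log2 CPM of a gene against that of UPP1 or against a marker score in log2 units. The r in each title is taken after removing group means, from 0.56 for UPP1 with SLC28A3 to 0.94 for SLC29A1 with the proliferation score.

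The scores themselves were set beside the groups, since they move with the members. The neutrophil score averaged -0.12 ± 0.42 (SD, n = 7) in the high and 0.15 ± 0.19 (SD, n = 6) in the low group, with 9 of its 12 markers lower in the high group and summed levels of 5850 to 12400 against 9090 to 12700 CPM (exact permutation p = 0.17, two-sided, adjusted over 12 scores 0.445). The proliferation score averaged -0.15 ± 0.32 (SD, n = 7) and 0.18 ± 0.54 (SD, n = 6), with all 14 markers lower in the high group and summed levels of 222 to 423 against 253 to 621 CPM (exact permutation p = 0.194, adjusted 0.445). The T cell score differed by -0.02 between the groups (exact permutation p = 0.83). Among the 12 scores the erythroid score had the smallest exact permutation p, 0.0175 (adjusted 0.21), being higher in the high group. The interferon response score followed, with a difference of -0.82, high minus low (exact permutation p = 0.0932, adjusted 0.445), with all 12 of its markers lower, and the platelet score, with all 8 of its markers lower, differed by -0.25 (exact permutation p = 0.463).

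With the neutrophil score as a further term in the fit, 6 of the 7 members were lower in the high group. The log2 fold change of UPP1 went from -0.50 to -0.28 (SE 0.16), that of CDA from -0.45 to -0.25 (SE 0.19), that of SLC28A3 from -0.94 to -0.67 (SE 0.27) and that of DPYD from -0.21 to 0.01 (SE 0.17). Those of ADA and SLC29A1 went the other way, from -0.47 to -0.62 (SE 0.19) and from -0.38 to -0.50 (SE 0.23). In the same fit the slope of SLC28A3 on UPP1 was 0.27 in place of 0.72, while that of CDA on UPP1 was 0.83 in place of 0.86, with an adjusted p of 0.224.

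**Figure D5:**
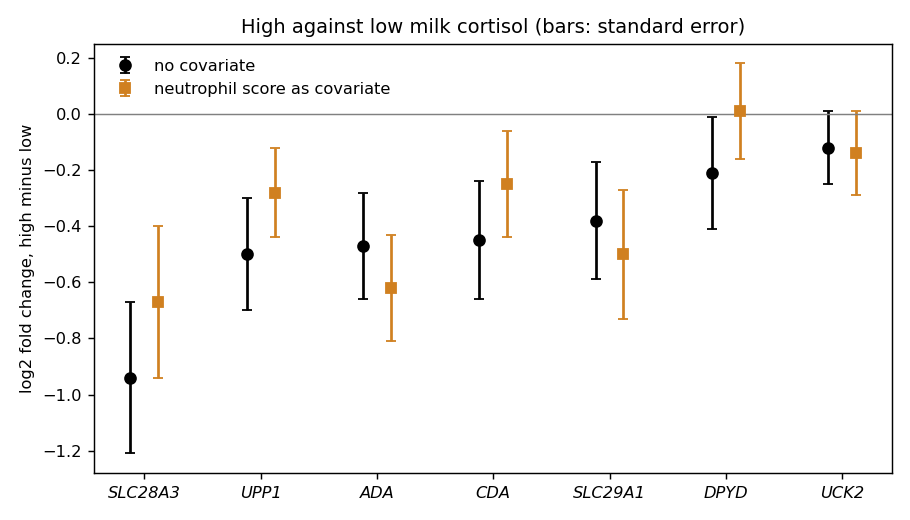
Log2 fold change, high minus low milk cortisol, of the 7 genes with its standard error, from the fit without a covariate (circles) and with the neutrophil score of each cow as a covariate (squares). The values of UPP1, CDA, SLC28A3 and DPYD lie nearer 0 with the covariate, and those of ADA and SLC29A1 lie farther from it.

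The wider nucleotide pathway was read from 64 further genes, listed by function, of which 54 had an entry by name and 49 were tested. Between high and low cows 0 passed the adjusted threshold and 0 had an unadjusted p under 0.05 with edgeR (1 with limma-voom), against 2.09% of all genes. Of the 49, 31 were lower and 18 higher in the high group, with a median log2 fold change of -0.04. Of all genes tested 46.7% were lower, with a median of 0.01. The smallest p of the 49 belonged to RRM2, the regulated subunit of the reductase that makes deoxynucleotides, at a log2 fold change of -0.54 (SE 0.28), and the next to IMPDH1, an enzyme of guanine nucleotide synthesis, at -0.23 (SE 0.13), each with an edgeR adjusted p of 0.998. The genes with the smallest p in the other lists were CMPK2 (-0.62), CECR1 (-0.17), DPYS (-0.45), CTPS1 (-0.09) and SLC29A4 (-0.46), by log2 fold change. Those second in their lists were RRM2B (0.26), GART (0.11), TK1 (-0.19), ENTPD1 (-0.14), UPB1 (0.07), TYMS (-0.12) and SLC29A2 (-0.08), and all of these genes also had an adjusted p of 0.998.

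Against UPP1 the same 49 genes gave 4 with an unadjusted p under 0.05 (8.16%, against 8.75% of all genes), of which CECR1 and XDH rose and SLC29A2 and GMPS fell with it, and 0 passed the adjusted threshold. Against SLC28A3 the count was 3 (6.12%, against 6.13% of all genes), XDH upward and TYMS and PRPS2 downward. With the neutrophil score it was 5 (10.2%, against 7.79% of all genes). With the proliferation score it was 11 (22.4%, against 12.5% of all genes), and RRM2 passed the adjusted threshold, rising by 1.24 log2 units per unit of the score (adjusted p = 0.0038). A larger share was not particular to that score. The count was 11 with the plasma cell score (22.4%, against 11%) and 10 with the B cell score (20.4%, against 9.15%). It was also 10 with the monocyte score (20.4%, against 13%). With the T cell score it was 3 (6.12%, against 4.23%), with the platelet score 1 (2.04%, against 1.31%) and with the erythroid score 3 (6.12%, against 3.12%). The share was below that of all genes with the neutrophil granule precursor, cytotoxic and NK, eosinophil and interferon response scores.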

How the data were processed

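Whole-blood RNA of 13 cows (7 high, 6 low milk cortisol) was analysed, 1 library per cow, grouped by the sample labels. The authors deposited counts, the whole number of reads assigned to each gene name, without normalization. Per the file headers, featureCounts 1.4.6-p3 summed exons by gene name on Ensembl release 88 of UMD3.1, without a strand option. The labels and methods name STAR 2.7.3, Subread 1.6.5 and ARS-UCD1.2 instead, and the headers place the alignments in a folder named for goat, so the build behind the alignments was not settled, and coordinates are those of the count tables. The unnamed entry (13.9 to 16.7% of counts) was left out.

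With TMM factors, CPM, TPM (exon length as deposited) and log2 CPM (prior count 2) were computed from the deposited counts. Genes passing filterByExpr (minimum count 10, minimum total 15) were fitted with edgeR 4.0.16 (quasi-likelihood, robust) in R 4.3.3, as high against low, and as co-variation with a gene or a marker score with group as a term; p-values were adjusted over all genes tested (Benjamini-Hochberg, threshold 0.05). Genes of a score were left out of its fit. Correlations used 100000 permutations within groups, and scores were compared over all 1716 splits of the cows.

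The members, gene lists and named genes were chosen with earlier results of these data known. The rule named the members, up to 2 genes per list with the smallest p, those at an adjusted p under 0.05, and the 5 genes most like UPP1 and SLC28A3. XDH, GMPS, PRPS2 and other genes named in co-variation counts were chosen after their values were seen. Fits on the proliferation score, on the other scores and on the other members were added after the data were seen. Alternatives were DESeq2 1.42.0, limma-voom (limma 3.58.1), RLE factors, no filter, haemoglobin genes left out, covariates, and each cow left out. On simulated counts of 11033 genes, the fit recovered 78.5% of 200 genes changed by 1 log2 unit between groups and 52.5% of 200 genes with a slope of 1 on a gene spread like UPP1. Methylation data were not analysed here.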

Additional observations from a re-analysis of the deposited data

Results flagged for a closer look

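No member stood out by a single cow in either group. Of 19 measures (the 7 members and 12 marker scores) in both groups, 38 groups in all, 2 had a cow far from the others, where chance alone flags about 1 in 20 groups, or 1.9 of 38. The plasma cell score of replicate 7 of the high group was 0.87, while the nearest cow of its group was at -0.05 and the lowest at -0.49. The interferon response score of replicate 5 of the high group was 1.29, with the nearest cow at -0.21 and the lowest at -0.94. SLC29A1, CDA and DPYD each had an unadjusted p under 0.05 with the plasma cell score, and no member had one with the interferon response score. Without replicate 7 of the high and replicate 12 of the low group, r with the plasma cell score went from 0.63 to 0.54 for SLC29A1. It went from -0.60 to -0.38 for CDA and from -0.74 to -0.62 for DPYD.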

How the results depend on the processing

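All 7 members were lower in the high group under each cow left out in turn, with log2 fold changes of -1.10 to -0.72 for SLC28A3, -0.68 to -0.42 for UPP1, -0.63 to -0.35 for CDA and -0.30 to -0.08 for DPYD (-0.08 without replicate 8 of the low group). With the neutrophil score as a covariate DPYD was the exception. The number of other nucleotide genes at an unadjusted p under 0.05, 0 in the reported fit, was 1 with limma-voom, 2 with the neutrophil score as a covariate, 1 with the neutrophil and T cell scores, and 0 to 2 with each cow left out. Of all genes, 1.98%, 2.57%, 2.76% and 1.74 to 3.4% had such a p in these fits, in the same order. The number of members at such a p with UPP1, 2 as reported, was 1 with the neutrophil score, 1 with both scores and 1 to 2 with each cow left out. Of all genes, 8.75% had such a p with UPP1 as reported. The share was 16.2% with the neutrophil score, 14.4% with both scores and 3.67 to 14.4% with each cow left out. With SLC28A3 the number of members was 3 as reported, 0 with the neutrophil score, 0 with both scores and 0 to 5 with each cow left out. The shares of all genes were 6.13%, 3.33%, 2.31% and 4.03 to 9.7%, in the same order. With the T cell score the number of members was 1 to 2 with each cow left out, against 3.19 to 6.55% of all genes. The number of members passing the adjusted threshold with the neutrophil score was 1 with DESeq2 in place of 0, in a fit where 59 of 14365 genes passed. With the proliferation score the number of members was 1 as reported, 0 with the neutrophil score, 0 with both scores, 2 with the haemoglobin share as a covariate and 0 to 2 with each cow left out (2 without replicate 5 of the high group). Among all genes the numbers passing were 47, 19, 6, 45 and 3 to 106 in the same order (106 without replicate 5 of the high group). The cause of these changes was not tested. Under the other alternatives these counts changed by less than 1.5 times, but the members counted could change. With the haemoglobin share as a covariate, SLC28A3 had an unadjusted p of 0.0554 with the neutrophil score (edgeR). In that fit ADA fell with the score, with a slope of -0.84 (SE 0.23, unadjusted p = 0.00268, adjusted p = 0.579).

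No paired analysis was possible because the groups share no replicate numbers. Every member had at least 87 counts in every cow, and p-values measure the spread between cows sampled once.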

Other observations

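Some other nucleotide genes were more abundant than the members or varied with another program, and were chosen after their values were seen. XDH, which oxidises hypoxanthine and xanthine to uric acid, had a median of 422 TPM (273 to 604), above the median of 162 TPM of UPP1, and its log2 CPM had r = 0.77 with the neutrophil score and 0.88 with the monocyte score over the 13 cows (adjusted p = 0.423 and 0.0908 in the edgeR fits). SLC29A2, the second equilibrative transporter, ran against both, with r = -0.87 and -0.86 (adjusted p = 0.247 and 0.0908). Against DPYD, 4 of the 49 other nucleotide genes passed the adjusted threshold (2.82% of all genes did): GDA, which deaminates guanine, with a slope of 0.82 (adjusted p = 0.0252) and XDH with 0.59 (adjusted p = 0.0422) upward, and SLC29A2 with -0.75 (adjusted p = 0.0394) and IMPDH2 with -0.54 (adjusted p = 0.0422) downward.

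Against SLC29A1, 3 of the 49 passed it (0.725% of all genes did): RRM2 with a slope of 1.18 (adjusted p = 0.038) and IMPDH2 with 0.62 (adjusted p = 0.0305) upward, and DCK, which phosphorylates deoxynucleosides, with -0.98 (adjusted p = 0.0264) downward. The gene closest to SLC29A1 over the 13 cows was TPX2 (r = 0.99), which is itself in the proliferation list, followed by NCAPG2 (0.97) and CENPT (0.96). CMPK2, a mitochondrial nucleotide kinase induced by interferon, rose by 1.03 log2 units per unit of the interferon response score (adjusted p = 0.000252, where 0.472% of all genes passed).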
